A study of Mus musculus with 16 samples.

Results

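The replication-dependent histone genes of the mouse were followed in liver and heart of animals with and without the methionine sulfoxide reductases. The members were the protein-coding genes whose symbols in the GENCODE M21 annotation start with Hist1h, Hist2h, Hist3h or Hist4h. The annotation holds 67 such genes, and 65 of them were among the 48709 gene identifiers of the count table; Hist1h2bh and Hist1h2bm were not analysed here, and 3 pseudogenes of the same naming were left out. The 65 genes comprised 6 for the linker histone H1, 18 for H2A, 16 for H2B, 12 for H3 and 13 for H4. By cluster, 52 belonged to Hist1 on chromosome 13, 10 to Hist2 on chromosome 3, 2 to Hist3 on chromosome 11 and 1, Hist4h4, stood alone on chromosome 6.

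Core histones H2A, H2B, H3 and H4 form the nucleosome, and H1 binds the DNA that enters and leaves it. The replication-dependent genes supply these proteins while DNA is copied, so their mRNAs accumulate mainly in S phase. Their mRNAs are the exception among animal mRNAs in that they end in a conserved stem-loop instead of a poly(A) tail. The stem-loop binding protein SLBP and the U7 small nuclear ribonucleoprotein direct the cut that makes this end, and NPAT, the target of cyclin E, activates the clusters. Replacement histones such as H3.3, H2A.Z and H1.0 come from other genes, whose mRNAs mostly carry poly(A) tails, and are also made outside S phase. Adult liver and heart hold few dividing cells. Reads of RNA without a poly(A) tail are kept in total RNA libraries made by removal of ribosomal RNA, the kind used here.

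The stem-loops are shown because they mark most of these genes and because the letters of their arms followed the histone type. Of the 65 genes, 50 had an annotated 3′ untranslated region of at least 16 bases, and in 44 of these (88.0%) the 16-base histone stem-loop consensus was found within 200 bases after the stop codon, 22 to 59 bases downstream of it. The same search found it in 9 of 20819 other protein-coding genes (0.0432%), among them H2afx, the gene of the H2A.X variant. Counts in members were the same in windows of 100 and 500 bases. The 8 forms found are written here from the GENCODE M21 transcripts, 5′ to 3′, with the arms of the stem in capitals and the loop in lower case.
Form in 24 genes of H1, H2A, H2B and H3: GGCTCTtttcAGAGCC
Form in 7 H4 genes: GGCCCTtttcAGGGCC
Form in 6 genes, among them Hist1h3e and Hist1h3f: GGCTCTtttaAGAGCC
Form in Hist1h4i and Hist2h4: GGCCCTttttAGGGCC
Form in Hist1h4b and Hist1h4j: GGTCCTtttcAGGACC
Form in Hist1h4a: GGCCCTtctcAGGGCC
Form in Hist1h3g: GGCTCTtcttAGAGCC
Form in Hist2h2ac: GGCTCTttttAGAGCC
All H4 genes with a match carried a stem of one of the GGCCCT or GGTCCT kinds, and all matches in the H1, H2A, H2B and H3 genes had the GGCTCT arm. The 6 genes with an annotated 3′ untranslated region but no match were Hist1h1a, Hist1h2bc, Hist1h2bq, Hist1h2br, Hist2h2be and Hist2h3b. The annotated regions of Hist1h2bc and Hist2h2be have 742 and 2192 bases. Those of Hist1h1c, Hist3h2a and Hist1h2be hold the stem-loop but run on to 880, 1700 and 1906 bases. Whether the reads of these genes came from mRNAs with or without a poly(A) tail was not tested. The other 15 gene models ended at or within 16 bases of the stop codon, so the search had nothing to read there.

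RNA was sequenced from 8 female mice of the C57BL/6J strain, aged 3 to 6 months: 4 wild-type (WT) animals and 4 in which all 4 genes of the methionine sulfoxide reductase (Msr) family, whose enzymes repair oxidised methionine, were knocked out (QKO, the Msr quadruple knockout). Each animal gave a liver and a heart sample, which made 16 libraries in 4 groups of 4: WT liver, QKO liver, WT heart and QKO heart. The labels name no treatment, and do not say how the alleles were made or whether the WT mice were littermates. Levels are counts-per-million (CPM) with the TMM normalization of edgeR over the 16 libraries, and log2 differences come from edgeR.

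The libraries held 37881696 to 72633124 counts, of which the 65 genes took 9860 to 19216 counts in liver and 3214 to 13283 in heart. Ribosomal RNA loci took 0.458% to 1.31% of the counts in liver, but 32.2% to 58.1% in 6 of the 8 hearts, 7.62% in WT heart 4 and 0.294% in QKO heart 4. Hepatocyte markers summed to between 30208 and 42563 CPM in the livers and 49.9 to 299 CPM in the hearts, and cardiomyocyte markers to between 15056 and 18828 CPM in the hearts and 6.14 to 35.1 CPM in the livers, so each tissue matched its label. Of the targeted genes, Msra, Msrb2 and Msrb3 were lower in every QKO library than in every WT library of the same tissue. Msrb1 was not. Every QKO heart (18.5 to 23.6 CPM) was above every WT heart (13.8 to 16.1 CPM). In liver the Msrb1 ranges overlapped, at 63.4 to 103 CPM in QKO and 82.3 to 106.5 CPM in WT. A count over the whole gene does not test a deletion of part of it. Pancreatic acinar markers summed to 559 CPM in WT liver 3 and 160.3 CPM in WT liver 4, against at most 1.80 CPM in the other livers, and skeletal muscle markers to 97.3 CPM in WT liver 4. Results in liver are given with and without these WT livers where that matters.

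Nearly all of the genes were detected, but a few gave most of the counts. A count was seen in every library of the group for 61 of the 65 genes in WT liver and 53 in WT heart. The 5 genes with the most counts, Hist1h2bc, Hist1h4h, Hist1h1c, Hist1h4d and Hist1h1e, made up 54.3% of the histone counts in WT liver, and the same genes made up 56.9% in WT heart. The germline-associated genes Hist1h1t, Hist1h2aa and Hist1h2ba were at or close to the limit of detection. Hist1h2aa had no count in either liver group, where 3 counts, the limit that a count of 0 allows, would be 0.0146 CPM in WT liver and 0.0131 CPM in QKO liver on the unscaled totals of the group, for counting error alone.

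The sum over the 65 genes was lower in heart than in liver. It came to 212 ± 24.8 CPM (SD, n = 4) in WT liver, 212 ± 40.0 CPM in QKO liver, 131 ± 14.9 CPM in WT heart and 140.0 ± 16.1 CPM in QKO heart. No heart reached the level of any liver, with hearts between 114 and 154 CPM and livers between 173 and 267 CPM, whereas the WT and QKO libraries of each tissue overlapped. In counts-per-million of protein-coding counts instead, which leaves out the ribosomal RNA reads, the tissues did overlap: the sum was 510.2 ± 87.2 in WT liver (430 to 625), 370.3 ± 67.8 in WT heart (294 to 456), 485 ± 84.8 in QKO liver and 405 ± 63.2 in QKO heart. The linker histone genes were the exception among the classes in their sum alone. The 6 H1 genes summed to 42.6 ± 5.11 CPM in WT liver and 42.2 ± 6.55 CPM in WT heart. In the QKO tissues they summed to 39.4 ± 8.50 CPM and 46.5 ± 3.56 CPM. The sum held a rise of 1 gene, Hist1h1c, from 20.7 ± 1.97 CPM in WT liver to 30.0 ± 5.23 CPM in WT heart. Of the 5 H1 genes tested in WT, 3 were called lower in heart, and the median log2 difference was -0.63. The share of the 6 H1 genes in the histone CPM was 20.3% ± 3.44 in WT liver and 32.2% ± 2.03 in WT heart. The ranges of the tissues did not overlap (15.8% to 24.0% against 30.4% to 34.6%). The H3 genes summed to 15.7 ± 2.36 CPM in WT liver and 5.82 ± 1.52 CPM in WT heart, and the H4 genes to 76.99 ± 5.41 CPM and 45.7 ± 4.83 CPM. In bulk tissue, fewer cells that make a transcript and less of it per cell cannot be told apart.

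**Figure D1:**
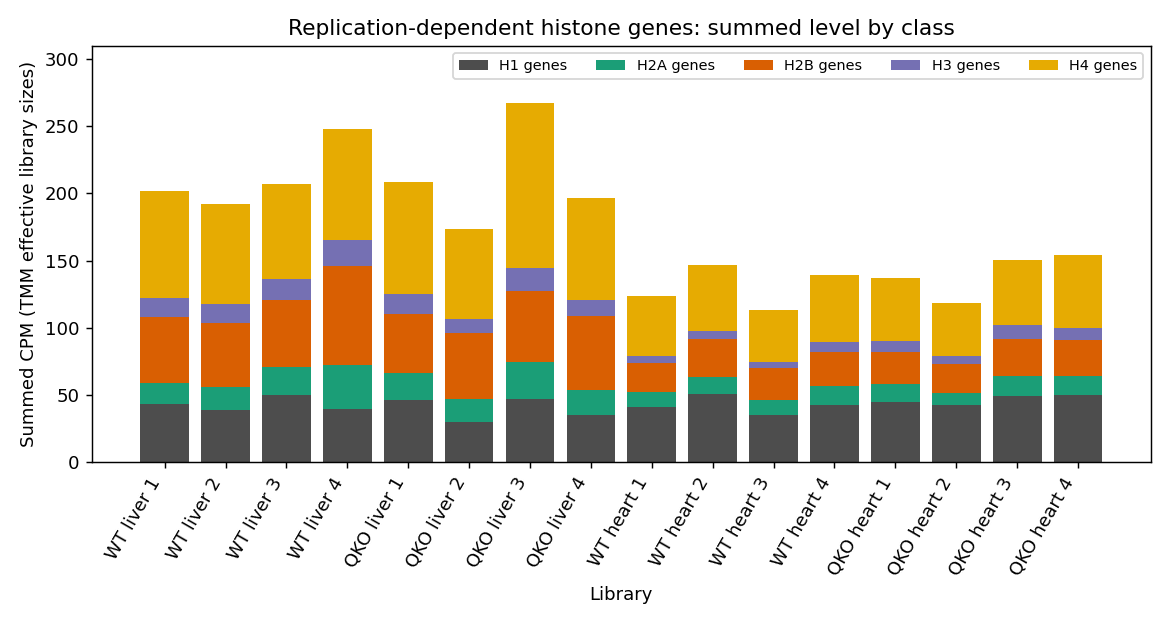
Summed CPM (y axis) of the replication-dependent histone genes in each of the 16 libraries (x axis), stacked by class. Hearts sum to between 114 and 154 CPM and livers to between 173 and 267 CPM, while the H1 segment has about the same height in both tissues.

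Levels of different genes are compared per kb of annotated exon. The highest was Hist1h4h, an H4 gene of the Hist1 cluster (chr13:23531050-23531519, plus strand, mm10), in all 4 groups. It stood at 25.03, 26.1, 24.2 and 30.97 CPM in the WT livers and 29.4, 27.1, 52.2 and 29.2 CPM in the QKO livers. The hearts gave 15.2, 16.5, 14.02 and 14.4 CPM in WT and 16.6, 13.6, 16.1 and 17.01 CPM in QKO. All hearts were below all livers, and QKO liver 3 stood above the other livers. Per kb, Hist1h4h was at 56.6 ± 6.45 CPM in WT liver and 32.03 ± 2.36 CPM in WT heart.

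The H2B gene Hist1h2bc was next in liver, with 33.5 ± 8.46 CPM per kb, and was the fourth in heart, with 8.97 ± 1.05. In the WT livers it stood at 34.3, 34.03, 33.2 and 53.4 CPM and in the WT hearts at 9.44, 11.98, 10.6 and 9.42 CPM. Next in WT liver were Hist2h2bb, Hist1h4d, Hist1h4c, Hist1h1c and Hist2h2ac, between 13.3 and 14.8 CPM per kb, with SDs of 1.26 to 5.63 that exceed the gaps between neighbours in this order. Hist1h1e, Hist1h4f and Hist1h3e closed the top 10, at 6.63 ± 1.95, 6.55 ± 0.823 and 6.47 ± 0.587 CPM per kb, and did not differ beyond their spread. In WT heart, Hist1h1c, a somatic H1 gene, was second, at 19.2 ± 3.35 CPM per kb, followed by Hist1h4d at 10.9 ± 1.03. Hist1h4k, at 2.54 ± 1.00, took the tenth place in heart, where Hist1h3e stood at 2.26 ± 0.519, a difference within the SD of Hist1h4k. With the longest transcript in place of the union of exons, the same 10 genes led in each tissue. Annotated lengths in these clusters run from the coding sequence alone to tails of several kb, so levels per kb also carry the choice of model.

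**Figure D2:**
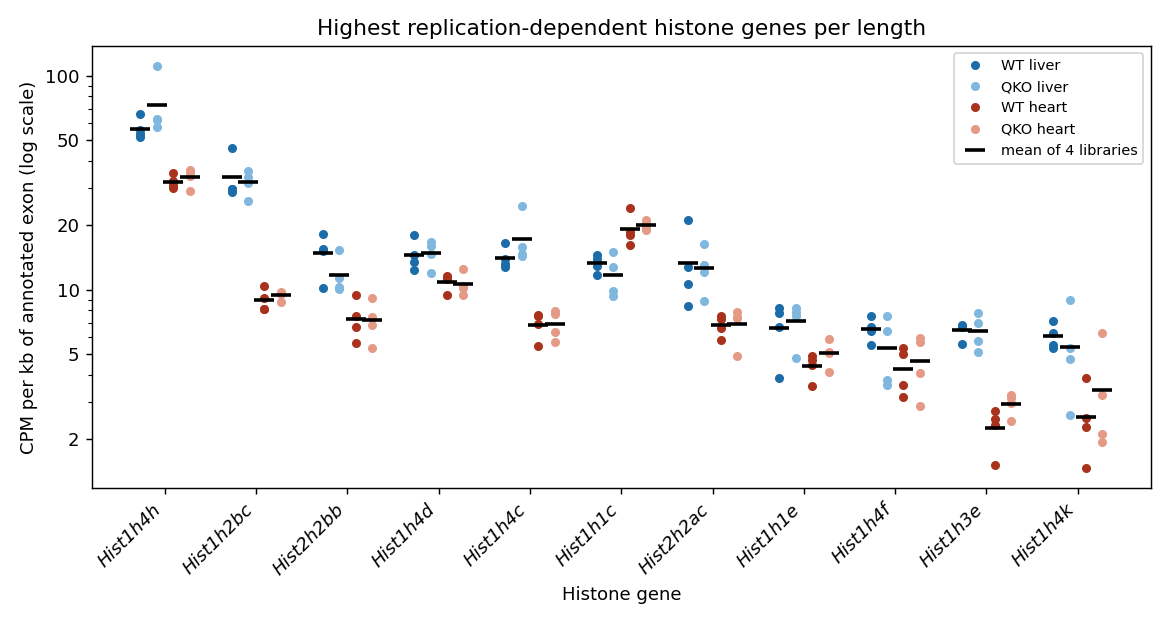
CPM per kb of annotated exon (y axis, log scale) for the 11 histone genes that were among the 10 highest in WT liver or WT heart (x axis), with a point for each library and a bar for the mean of 4. Hist1h4h leads in every group, and Hist1h1c is the only gene of the 11 with higher values in heart.

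Many of the genes encode the same protein, and their levels differed widely within a protein. All 13 H4 genes encode 1 protein of 103 residues. In WT liver their levels ran from 1.17 CPM per kb for Hist1h4i to 56.6 CPM per kb for Hist1h4h, which gave 34.5% ± 2.34 of the H4 CPM there and 33.1% ± 2.74 in WT heart. The 7 H3 genes of the group with Hist1h3e also share a protein of 136 residues; Hist1h3e gave 49.7% ± 6.96 of their CPM in WT liver, with Hist1h3f next at 24.0% ± 4.50. Within a group of 9 H2A genes, levels in WT liver ran from 0.155 CPM per kb for Hist1h2ao to 2.38 CPM per kb for Hist1h2ab. In WT the clearest change of composition was in the group of 3 H2B genes that encode the same 126 residues, Hist1h2bc, Hist1h2be and Hist1h2bg. Hist1h2bc took 90.3% ± 1.79 of their CPM in WT liver and 64.8% ± 1.36 in WT heart, while Hist1h2be took 7.48% ± 0.964 and 32.0% ± 1.24. In QKO animals the shares of Hist1h2be were 8.06% ± 2.34 in liver and 31.1% ± 3.45 in heart. A group of 4 other H2B genes changed as well in QKO. There Hist1h2bn took 30.7% ± 2.88 in liver and 55.3% ± 3.91 in heart, against 31.9% ± 1.62 and 42.9% ± 10.9 in WT. All these shares are of CPM, without a correction for length. Hist1h2be has 4446 bases of annotated exon and Hist1h2bc 1156. Per kb, Hist1h2be stood at 0.705 ± 0.0660 CPM in WT liver and 1.15 ± 0.0946 in WT heart, against 33.5 ± 8.46 and 8.97 ± 1.05 for Hist1h2bc. The model of Hist1h2be also overlaps that of Hist1h1e on the same strand.

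Sequence shared with other gene models, through near-identical copies or overlapping models, limits the counts of the individual genes. The share of a gene's 75-base words, the read length, that also occur in another gene had a median of 46.1% and passed 80% in 16 of the 65 genes. The search covered both strands and models that overlap a member, so the share does not tell copies from overlaps. It was 100% for Hist2h2aa1, Hist2h2aa2, Hist2h2bb, Hist2h3b and Hist2h3c1, each of which overlaps another gene model. The share was 0 for Hist1h1a, Hist1h1b, Hist1h1t, Hist2h2be and Hist2h4. How reads with several matches were counted is not given in the sources used here, so values of the genes with high shares are uncertain. The gene spans of 24 members overlap another gene model, 21 of them on the opposite strand, and whether the counting used strand is not given either.

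In WT animals most replication-dependent histone genes were lower in heart than in liver. Of the 55 members tested in WT animals, 36 were lower in heart and 4 higher at an adjusted p under 0.05 (edgeR quasi-likelihood test, Benjamini-Hochberg over 18204 genes). Of all genes tested, 36.9% were lower and 35.6% higher, so calls were common in both directions in this comparison. The median log2 difference of the members was -0.99, against -0.02 for all genes tested. In the QKO animals, which share no library with the WT comparison, 18 of 54 tested members were lower and 5 higher, against 37.1% and 37.2% of all 18039 genes tested. The QKO count of lower members was thus not above the share among all genes, while the median was -0.51, against 0.01 for all genes. All 18 genes called lower in QKO were among the 36 called lower in WT (50% of the 36, 100% of the 18). Of the 54 genes tested in both, 46 had the same sign. The matching shares over all genes are not given, so this agreement cannot be called particular to the histone genes. With WT livers 3 and 4 left out, 28 members were lower in heart and 4 higher in WT, with a median of -0.80. A filter of 1 CPM in 4 libraries left 30 members for the test, of which 22 were lower.

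**Figure D3:**
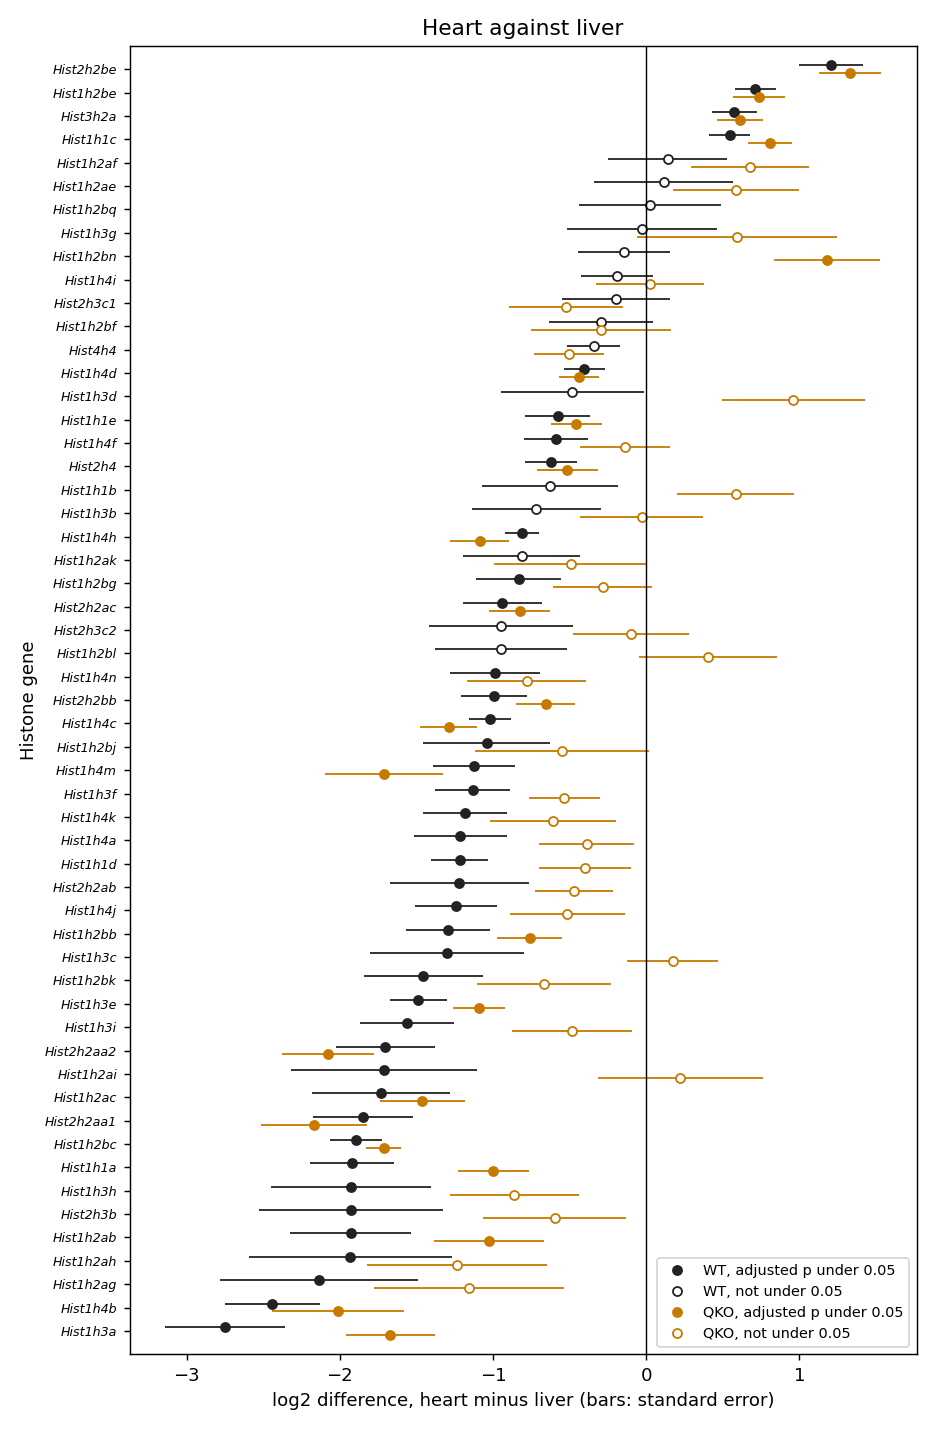
Log2 difference between heart and liver (x axis, heart minus liver, bars give the standard error) for each tested histone gene (y axis), in WT (black) and QKO (orange) animals, filled where the adjusted p was under 0.05. Most points lie left of 0, and Hist2h2be, Hist1h2be, Hist3h2a and Hist1h1c are filled and right of 0 in both genotypes.

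By class in WT, 11 of 13 tested H4 genes, 7 of 12 H3 genes, 9 of 13 H2A genes, 6 of 12 H2B genes and 3 of 5 H1 genes were lower in heart. No H3 or H4 gene had a positive difference. Differences are log2 heart minus liver, with the standard error. The largest difference was that of Hist1h3a, an H3 gene of the Hist1 cluster. It stood at 1.49, 1.36, 2.08 and 2.50 CPM in the WT livers and 0.405, 0.0829, 0.141 and 0.351 CPM in the WT hearts, and every heart was below every liver. The log2 difference was -2.75 ± 0.39 (SE; adjusted p = 6.80e-05) in WT and -1.67 ± 0.29 (adjusted p = 0.000190) in QKO. Hist1h4b, an H4 gene, stood at 2.19, 1.81, 2.46 and 2.08 CPM in the WT livers and 0.429, 0.332, 0.141 and 0.544 CPM in the WT hearts. Its log2 differences were -2.44 ± 0.31 (adjusted p = 2.71e-05) in WT and -2.01 ± 0.43 (adjusted p = 0.000947) in QKO, and the tissues did not overlap in either genotype. Reads of Hist1h4b are shared with other genes over 73.99% of its 75-base words.

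The H2A genes Hist1h2ag, Hist1h2ah and Hist1h2ab followed. Hist1h2ag, at 0.491, 0.539, 0.808 and 1.58 CPM in the WT livers and 0, 0.290, 0.141 and 0.306 CPM in the WT hearts, had a log2 difference of -2.14 ± 0.65 (adjusted p = 0.0116). Hist1h2ah differed by -1.93 ± 0.66 (adjusted p = 0.0213). Both rest on few counts in heart, 38 and 35 over the 4 WT hearts, and neither was called with WT livers 3 and 4 left out (adjusted p = 0.0787 and 0.0933); Hist1h2ah also lost its call without WT heart 3 (adjusted p = 0.0591). In QKO their log2 differences were -1.16 and -1.23, at adjusted p = 0.110 and 0.0742. Both were called in QKO without QKO liver 4 (adjusted p = 0.0381 and 0.0180) and without both tissues of replicate 4 (0.0449 and 0.0155), and Hist1h2ah also without a filter on low counts (0.0496). Hist1h2ab was lower in both genotypes, at -1.93 ± 0.40 in WT and -1.03 ± 0.36 in QKO on the log2 scale (adjusted p = 0.0206 in QKO). The QKO call of Hist1h2ab was lost with upper-quartile scaling (adjusted p = 0.0519), without QKO liver 1 (0.0578) and without both tissues of replicate 4 (0.0712). Hist2h3b, an H3 gene without unique 75-base words, was lower in WT, at -1.93 ± 0.60 (adjusted p = 0.0133, and 0.0591 without WT livers 3 and 4), and its difference in QKO was -0.60 (adjusted p = 0.261).

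Among the abundant genes, Hist1h2bc had the smallest adjusted p of the members in both genotypes. Its log2 difference was -1.89 ± 0.17 (adjusted p = 1.83e-06) in WT and -1.71 ± 0.12 (adjusted p = 2.75e-08) in QKO. Hist1h4h was lower, at -0.81 and -1.09, Hist1h4c at -1.02 and -1.29, and Hist1h3e at -1.49 and -1.09, in WT and QKO. Hist1h4d, which shares only 3.67% of its 75-base words, differed least of the H4 genes called, by -0.40 ± 0.13 in WT (adjusted p = 0.0185). The H1 gene Hist1h1e was lower, at -0.58 ± 0.21 in WT (adjusted p = 0.0295). Hist2h2bb and Hist1h4k were lower in WT, at -0.99 and -1.18, and Hist1h4f at -0.59.

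The genes higher in heart were Hist2h2be and Hist1h2be (H2B), Hist3h2a (H2A) and Hist1h1c (H1), and they were called in both genotypes. Hist2h2be stood at 0.961, 1.33, 1.59 and 1.15 CPM in the WT livers and 2.38, 3.52, 2.65 and 3.08 CPM in the WT hearts. The QKO livers gave 1.04, 0.920, 1.05 and 1.01 CPM and the QKO hearts 2.86, 2.07, 1.94 and 2.99 CPM. In each genotype every heart was above every liver, with log2 differences of 1.20 ± 0.21 (adjusted p = 0.000297) in WT and 1.33 ± 0.20 (adjusted p = 5.39e-05) in QKO. None of its 75-base words occurs in another gene.

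Hist1h1c stood at 20.1, 18.3, 22.8 and 21.7 CPM in the WT livers and 29.0, 37.5, 25.3 and 28.2 CPM in the WT hearts, without overlap. Its log2 difference was 0.54 ± 0.13 (adjusted p = 0.00366) in WT and 0.81 ± 0.14 (adjusted p = 0.000220) in QKO. Hist1h2be stood at 2.84, 3.17, 2.99 and 3.52 CPM in the WT livers and 4.58, 5.51, 5.37 and 4.98 CPM in the WT hearts, a log2 difference of 0.71 ± 0.13 (adjusted p = 0.000577). Hist3h2a, on chromosome 11, stood at 2.84, 3.51, 3.19 and 3.57 CPM and 4.29, 5.64, 4.41 and 5.09 CPM, a log2 difference of 0.58 ± 0.15 (adjusted p = 0.00412). In QKO the differences of Hist1h2be and Hist3h2a were 0.74 and 0.61. The model of Hist1h2be overlaps that of Hist1h1e on the same strand, which was lower in heart, and that of Hist3h2a overlaps Trim17 on the same strand, so reads of the neighbours may be counted with them. In QKO 1 more gene, Hist1h2bn, was called higher, at 1.18 ± 0.35 (adjusted p = 0.00773), against -0.14 ± 0.30 (adjusted p = 0.681) in WT; the difference between these, 1.30 ± 0.46, did not pass the test across all genes (adjusted p = 1.000).

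Many H2A and H2B genes lie head to head around a shared stretch of DNA. In the annotation 12 such pairs had starts within 500 bases of each other, 176 to 306 bases apart, 11 on chromosome 13 and Hist2h2ac with Hist2h2be on chromosome 3. Both members were tested in WT for 7 pairs, and in 5 of these the log2 differences between heart and liver had the same sign. In 3 pairs both members were called lower in heart. Of all 55 members tested in WT, 48 had a negative difference and 36 were called lower. Shared signs are thus common among members whatever their pairing, and these counts do not show that pairs vary together. The pair on chromosome 3 was the 1 in which both members passed the test in opposite directions. Hist2h2ac stood at 5.50, 4.39, 6.64 and 11.1 CPM in the WT livers and 3.46, 3.03, 3.78 and 3.93 CPM in the WT hearts, and was lower, at -0.94 ± 0.26 (adjusted p = 0.00674) in WT and -0.83 ± 0.20 (adjusted p = 0.00222) in QKO, while Hist2h2be was higher in both. The ratio of Hist2h2be to Hist2h2ac counts lay between 0.104 and 0.303 in the WT livers and between 0.690 and 1.16 in the WT hearts. The log2 ratio was higher in heart by 2.10 in WT and by 2.12 in QKO and was higher in all 4 animals of each genotype. Paired by animal, the two-sided exact permutation p was 0.125 in each genotype, the smallest that 4 pairs allow, so the pairs cannot pass a threshold of 0.05. Treating the libraries as independent gave an exact permutation p of 0.0286 in each. This ratio was chosen after its values were seen. The ratio of Hist1h2bc to Hist1h2ac, also a head-to-head pair, differed by -0.17 between the tissues in WT (paired exact permutation p = 1.00, unpaired 0.657) and by -0.27 in QKO (paired exact permutation p = 0.125, unpaired 0.229), on the log2 scale.

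The stretch between the starts of Hist2h2ac and Hist2h2be is printed because the pair moved apart across tissues while sharing it. It covers chr3:96220881-96221118 of GRCm38.p6 (RefSeq promoter table), read on the minus strand towards Hist2h2ac, with matches to CCAAT and TATAAA on either strand in capitals. The RefSeq table matched 60 of the 65 members.
Hist2h2ac to Hist2h2be interval: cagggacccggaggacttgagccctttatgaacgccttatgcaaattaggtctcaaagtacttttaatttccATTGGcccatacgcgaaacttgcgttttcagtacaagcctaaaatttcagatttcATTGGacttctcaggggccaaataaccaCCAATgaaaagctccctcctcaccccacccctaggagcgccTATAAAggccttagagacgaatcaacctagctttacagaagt
CCAAT was found at bases 73 to 77 and 128 to 132 as the reverse complement and at 156 to 160 as printed, and TATAAA at 197 to 202, as printed, on the side of Hist2h2ac. In windows of 300 bases around gene starts, CCAAT on either strand was found in 51 of the 60 members (85.0%) and in 41.0% of 26966 other genes, and TATAAA in 35 members (58.3%) and 15.6% of other genes. The matches in the printed stretch do not overlap each other, and a match is a description of the sequence alone.

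**Figure D4:**
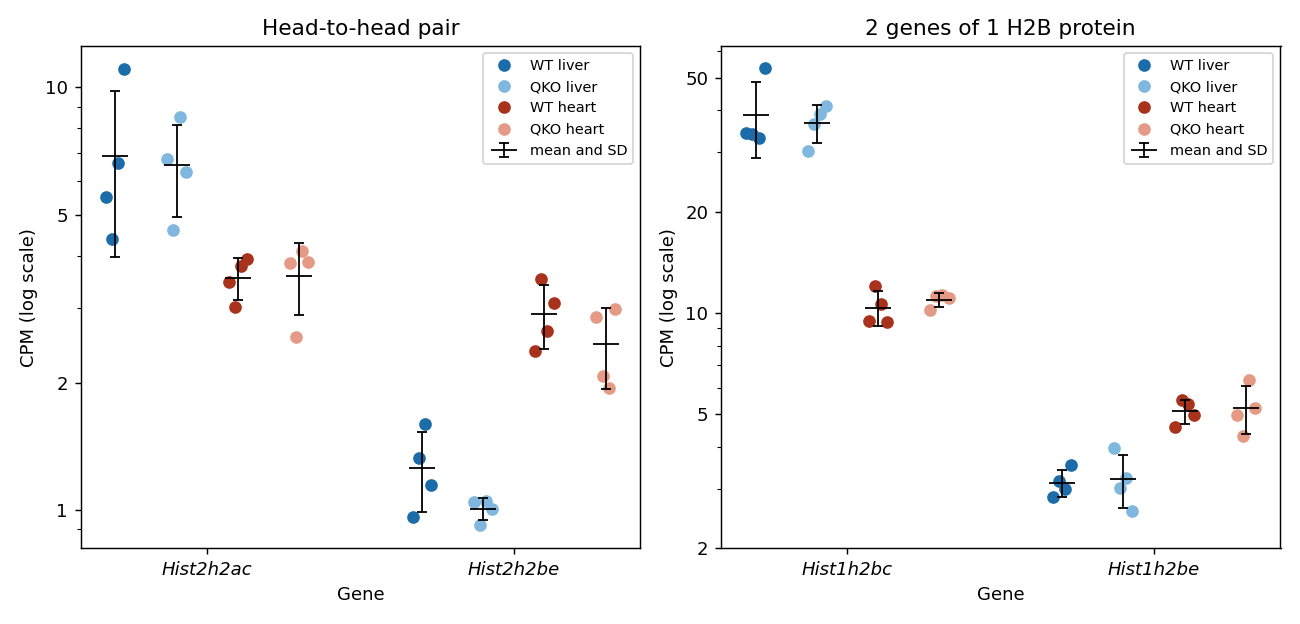
CPM (y axis, log scale) of Hist2h2ac and Hist2h2be, a head-to-head pair, and of Hist1h2bc and Hist1h2be, which encode the same H2B protein (x axis), with a point for each library and the mean and SD of 4. In each panel the gene on the left is lower in heart and the gene on the right is higher in heart, in WT and QKO.

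Other genes of histone supply and of the cell cycle were read from the same tests. Of all genes tested there, 36.9% were lower in WT heart and 35.6% higher. In WT heart against liver, 8 of the 10 tested replacement histone genes were lower and 2 higher. H3f3b, an H3.3 gene, was lower, at -0.85 ± 0.16 (adjusted p = 0.000500), H1f0, the gene of H1.0, at -0.64 ± 0.15 (adjusted p = 0.00254), and H2afj, H2afz and H2afy at -1.82, -1.66 and -1.44. Cenpa, the centromeric H3, was higher by 1.30 ± 0.18. Per kb, the 12 replication-dependent H3 genes summed to 22.5 ± 3.61 CPM in WT liver and 7.66 ± 2.34 CPM in WT heart, and the H3.3 genes H3f3a and H3f3b to 25.7 ± 4.50 and 15.2 ± 0.831.

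Of 12 tested genes for histone mRNA processing, 6 were lower in WT heart and 2 higher. Slbp was lower, at -0.95 ± 0.14 (adjusted p = 0.000108), with 8.12 ± 0.633 CPM in WT liver and 4.13 ± 0.694 CPM in WT heart. Lsm10, a protein of the U7 particle, and Cpsf3, the nuclease that makes the cut, were lower, at -0.68 and -0.48. Sympk, the scaffold of the cleavage complex, was higher by 1.10. Npat was higher by 0.40 ± 0.15 (adjusted p = 0.0329), a call that was lost in 5 of the alternatives, among them the analysis without a filter on low counts (adjusted p = 0.0544). Of 15 histone chaperone genes, 4 were lower, among them Chaf1b (-3.05), Nasp (-1.48) and Ssrp1 (-1.01), and 5 were higher, led by Nap1l4 (1.17). Neither chaperone count was above the share among all genes tested (36.9% lower and 35.6% higher).

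Genes of DNA replication were mostly lower in heart as well: 17 of 25 in WT, with 1 higher. In QKO 13 were lower and 3 higher, against 37.1% and 37.2% of all genes tested. The median log2 difference was -0.74 in WT and -0.46 in QKO. In WT the nucleotide synthesis genes Tk1, Tyms and Rrm2 and the cyclin gene Ccne1 were lower, at -2.80, -2.27, -2.08 and -1.80. Pcna, the sliding clamp, was lower, at -0.58 ± 0.13 (adjusted p = 0.00153). Of 16 tested mitosis genes, 3 were lower and 2 higher in WT, both below the shares among all genes (36.9% and 35.6%). In QKO 1 was lower and 4 were higher, with a median of 0.03 against -0.57 in WT. Cenpf was higher in WT by 5.90 ± 0.31, from 0.347 ± 0.111 CPM in WT liver to 20.7 ± 6.60 CPM in WT heart. The lower genes in WT were Ccnb2 (-2.02), Cdk1 (-1.88) and Ube2c (-4.15). The Ube2c value rests on WT liver 4, without which it was 0.34 (adjusted p = 0.625). Ccnb2 was not called without WT heart 3 (adjusted p = 0.0542) and was at -3.82 without WT heart 4. Mki67, the Ki-67 gene, did not pass in WT, at -0.09 ± 0.28 (adjusted p = 0.776), a sign that turned with upper-quartile scaling (0.09), and was higher in QKO heart, at 0.86 ± 0.20 (adjusted p = 0.00165). Of 10 other RNAs without a poly(A) tail, 6 were lower in WT heart, led by Terc (-2.99), Rn7s1 (-2.60), Rn7s2 (-1.73) and Rpph1 (-1.65). Rn7s1 was not called without WT heart 1 or 2 (adjusted p = 0.0577 and 0.0673) and was at -4.31 without WT heart 4. Their part in the histone difference, and that of the share of ribosomal RNA, was not tested. With upper-quartile scaling the median of all genes moved to 0.16 in WT and 0.20 in QKO, and 29 and 14 members were lower.

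The comparison of QKO with WT asks whether loss of the 4 reductases goes with a difference in these genes. In liver no member passed: 0 of 57 tested were called at an adjusted p under 0.05, against 0.0846% of the 17738 genes tested. By class the medians were -0.25 for H1, -0.42 for H2A, -0.38 for H2B, -0.48 for H3 and 0.02 for H4 genes. At an unadjusted p under 0.05 edgeR gave 2 members, where 3.29% of all genes tested passed that level in edgeR. DESeq2 gave 3 and limma-voom 3, without a share of all genes given for them, and neither of these other tools called a member. The members' median log2 difference was -0.35 (all genes -0.01), and 14 of the 57 were positive. Leaving out WT liver 4 alone gave a median of -0.17, and without WT livers 3 and 4 it was -0.03, with 26 of 58 positive. The smallest adjusted p among the members was 1.00. Groups did not overlap for 1 member, against 2.12% of all genes tested, a share near the background. It was Hist1h2bn, an H2B gene, at 0.470, 0.429, 0.614 and 0.720 CPM in the WT livers and 0.299, 0.380, 0.410 and 0.386 CPM in the QKO livers, with a log2 difference of -0.61 ± 0.30.

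The lowest values in QKO liver were those of the H3 genes Hist2h3c2, Hist2h3b and Hist1h3g and the H4 gene Hist1h4a. Hist2h3c2 stood at 0.307, 0.737, 0.733 and 0.536 CPM in WT and 0.367, 0.380, 0.215 and 0.293 CPM in QKO, a log2 difference of -0.89 ± 0.35. Hist1h4a stood at 0.920, 1.25, 1.29 and 1.79 CPM in WT and 0.999, 0.515, 0.819 and 0.785 CPM in QKO, a difference of -0.77 ± 0.28. For both genes the groups overlapped. Hist2h3b and Hist1h3g gave -0.84 ± 0.40 and -0.81 ± 0.63, and the value of Hist1h3g turned to 0.06 without WT livers 3 and 4. The highest values were those of Hist2h2aa1 (0.62 ± 0.35), Hist1h4m (0.59 ± 0.36), Hist1h4h (0.37 ± 0.21) and Hist1h4c (0.29 ± 0.19). Without QKO liver 3 the values were 0.19, 0.20, 0.089 and 0.071. In these 4 genes that library was the highest of all 8 livers; Hist2h2aa1, for example, was at 1.78, 1.89, 4.33 and 1.71 CPM in the QKO livers and 0.859, 1.51, 1.65 and 2.18 CPM in the WT livers. The other RNAs without a poly(A) tail summed to 125858 CPM in QKO liver 3 and to between 23743 and 71591 CPM in the other livers; their part was not tested.

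Livers of a genotype differed among themselves. As a summary of each library, the median over the 57 tested genes of the log2 deviation from a gene's mean over the 8 livers was taken. It was -0.07, -0.06, 0.21 and 0.49 in WT livers 1 to 4, and -0.01, -0.32, 0.17 and -0.18 in QKO livers 1 to 4. In WT liver 4, 50 of the 57 genes were above their mean, and in QKO liver 2 only 4 were. The mitosis genes summed to 26.8 CPM in WT liver 4 and 14.9 CPM in WT liver 3, the highest of the livers, against 8.73 to 12.8 CPM in the rest; B and plasma cell markers summed to 18.8 CPM in WT liver 3, against 2.64 to 3.74 CPM in the others. Of 25 tested genes of DNA replication and 16 of mitosis, none was called by edgeR between QKO and WT liver, with 1 and 2 at an unadjusted p under 0.05 and medians of -0.21 and -0.33. The part of these other cells and genes in the histone values was not tested.

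In heart no member passed either: 0 of 44 tested were called, against 0.165% of the 16974 genes tested. At an unadjusted p under 0.05 edgeR, DESeq2 and limma-voom each gave 4 members, where 7.19% of all genes tested passed that level in edgeR, and none was called by DESeq2 or limma-voom. The median log2 difference was 0.15 (all genes 0.00), and 32 of the 44 were positive. It lay between 0.05, without QKO heart 4, and 0.29, without WT heart 4, when each library was left out in turn, and was 0.09 without the replicate 4 hearts, whose ribosomal RNA share was the lowest. By class the medians were 0.49 for 5 H1 genes, 0.54 for 10 H3 genes, 0.01 for 9 H2A genes, 0.09 for 7 H2B genes and 0.05 for 13 H4 genes. The 4 members with an unadjusted p under 0.05 by edgeR were Hist1h3f, Hist1h3c, Hist1h1a (0.65 ± 0.26) and Hist1h1d (0.51 ± 0.20).

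Groups did not overlap in heart for 1 member, Hist1h3f, an H3 gene, against 4.66% of all genes tested, so the count was not above the background. It stood at 1.05, 1.20, 1.02 and 1.47 CPM in the WT hearts and 2.06, 1.87, 2.02 and 1.82 CPM in the QKO hearts. The log2 difference was 0.68 ± 0.18 with an adjusted p of 0.335, so it did not pass across all genes. In liver the same gene gave 0.10 ± 0.28. The other high values in heart were those of Hist1h3c (1.19 ± 0.46), Hist1h3d (0.76 ± 0.49) and Hist1h2bn (0.69 ± 0.35). Hist1h3c stood at 0.238, 0.373, 0.0706 and 0.680 CPM in the WT hearts and 0.593, 0.547, 1.33 and 0.974 CPM in the QKO hearts, which overlapped in WT heart 4. The lowest values were those of Hist2h3c1 (-0.41 ± 0.36), Hist1h3g (-0.23 ± 0.50), Hist2h2be (-0.23 ± 0.18) and Hist2h2aa2 (-0.16 ± 0.32), and the signs of Hist1h3g and Hist2h2aa2 turned when WT heart 4 was left out (0.0067 and 0.18). They also turned without QKO heart 2 for Hist1h3g (0.11) and without QKO heart 1 for Hist2h2aa2 (0.0091).

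The abundant genes had small standard errors. In heart the log2 difference was 0.08 ± 0.08 for Hist1h4h, 0.09 ± 0.09 for Hist1h2bc, 0.07 ± 0.10 for Hist1h1c and -0.03 ± 0.10 for Hist1h4d. In liver the same genes gave 0.37 ± 0.21, -0.09 ± 0.18, -0.19 ± 0.17 and 0.02 ± 0.15. Slbp, Npat, Pcna, H3f3b and H1f0 were not called in either tissue; Slbp, for example, gave -0.11 ± 0.15 in liver and -0.10 ± 0.18 in heart. No gene of the replacement histone, mRNA processing, chaperone, replication or mitosis lists was called by edgeR between QKO and WT in either tissue; at an unadjusted p under 0.05 there were 3 in liver, 1 of replication and 2 of mitosis, and 0 in heart.

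**Figure D5:**
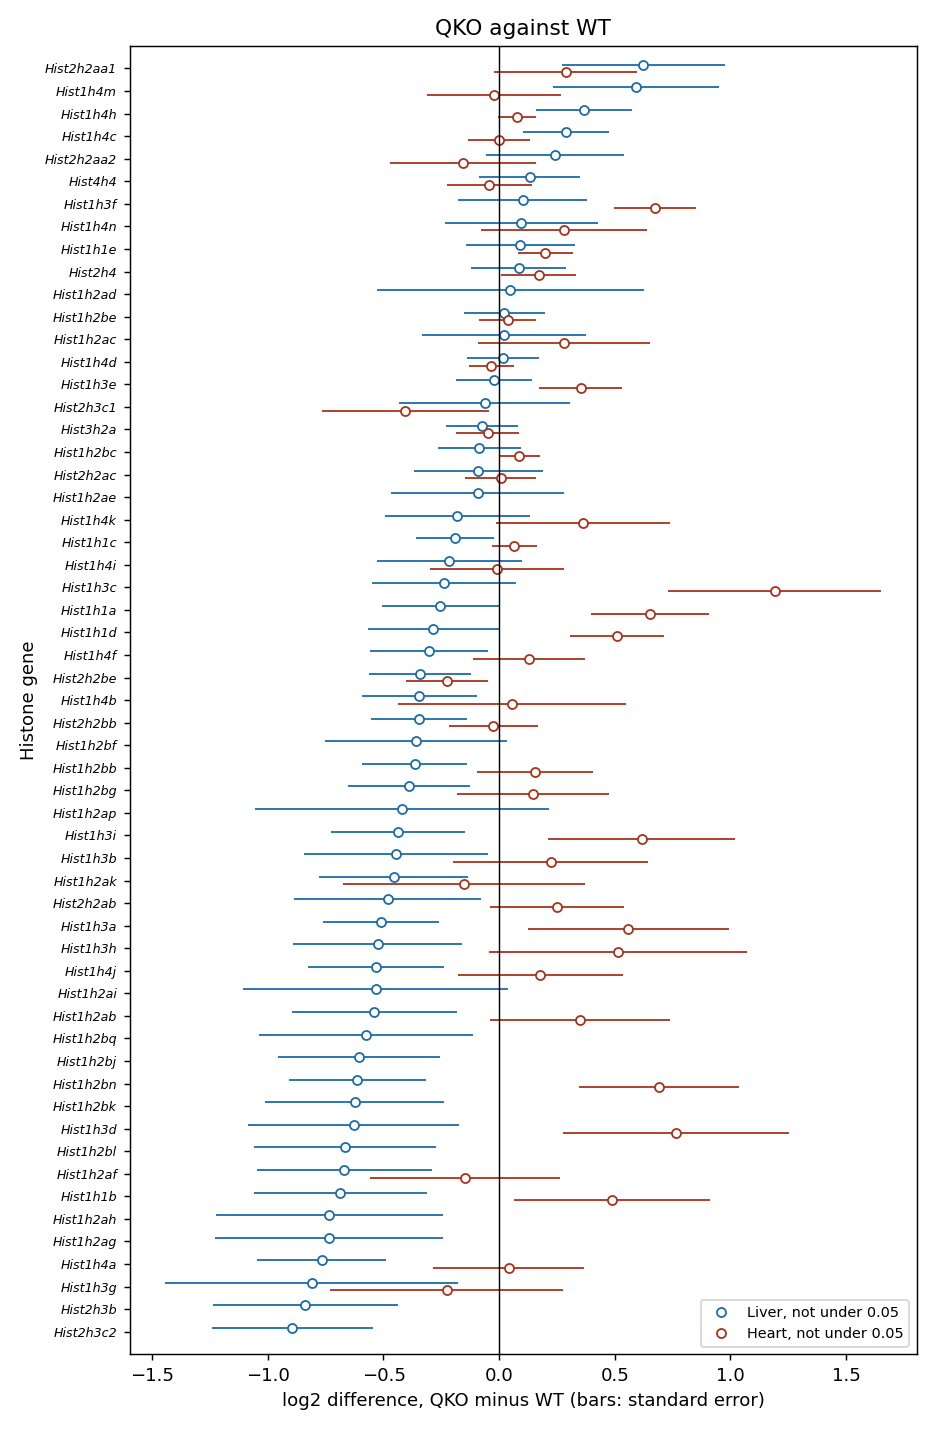
Log2 difference between QKO and WT (x axis, QKO minus WT, bars give the standard error) for each tested histone gene (y axis), in liver (blue) and heart (red). No point has an adjusted p under 0.05; the liver values have a median of -0.35 and the heart values a median of 0.15.

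Whether the genotype difference itself differed between the tissues was tested by the interaction over all 16 libraries. None of the 58 members tested was called, against 0.00511% of 19587 genes. At an unadjusted p under 0.05 edgeR gave 5 members, a level that 4.00% of all genes tested passed in edgeR. DESeq2 gave 9 and limma-voom 6, with no call by those tools. The shares of all genes under that level are not given for them. The members' median was 0.48 (all genes 0.00) on the log2 scale, heart effect minus liver effect, and 47 of 58 were positive. With each library left out in turn, the median lay between 0.33, without WT liver 4, and 0.66, without QKO heart 2. The interaction was not fitted without WT livers 3 and 4 together. In the comparison of QKO with WT liver, that exclusion moved the members' median from -0.35 to -0.03. The 5 genes under that level by edgeR were Hist1h2bn (1.30 ± 0.46), Hist1h1a (0.90 ± 0.36), Hist1h3c (1.45 ± 0.60), Hist1h2ai (1.92 ± 0.87) and Hist1h3a (1.06 ± 0.49). Hist1h2ai rests on few counts, 1, 2, 1 and 14 in the WT hearts, and shares 89.3% of its 75-base words with other genes. Hist1h2bn shares 72.3%. Hist1h1a, an H1 gene with no shared 75-base word, stood at 1.96, 1.61, 2.64 and 3.22 CPM in the WT livers, 2.51, 1.55, 2.09 and 1.83 CPM in the QKO livers, 0.620, 0.539, 0.459 and 0.771 CPM in the WT hearts and 0.698, 0.949, 1.22 and 0.997 CPM in the QKO hearts. By class the medians were 0.79 for 5 H1 genes, 0.94 for 12 H3 genes, 0.48 for 15 H2A genes, 0.31 for 13 H2B genes and 0.18 for 13 H4 genes. The mitosis list had a median of 0.74 over 17 genes, with none called and 1 at an unadjusted p under 0.05 by edgeR.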

How the data were processed

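Libraries of rRNA-depleted total RNA from 16 tissue samples were made with a stranded kit and sequenced as paired reads of 75 bases, per the labels' protocols. The authors deposited raw read counts per Ensembl gene; the submitters' processing notes name cutadapt, HISAT2, featureCounts and mm10, without versions. Treatment of multiply matching reads and the strand setting are not given in the sources used here.

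Identifiers were matched to GENCODE M21 (48349 of 48709 matched). Each comparison used edgeR 4.0.16 in R 4.3.3 on the counts: filterByExpr, TMM, the quasi-likelihood test, Benjamini-Hochberg adjustment over all genes tested and a threshold of 0.05. Only the groups compared entered a fit, and all 16 libraries the interaction. DESeq2 1.42.0, limma-voom (limma 3.58.1), other scalings, filters, a replicate block and left-out libraries were alternatives. The test was tested on simulated data. CPM used TMM over the 16 libraries, and a pseudocount of 0.1 entered the library medians. Exact tests used scipy 1.17.1; the version paired by animal was added after the data were seen. Depth was 37881696 to 72633124 counts, and 3214 to 19216 for the members, which limits genes with few counts. The floors given for a count of 0 cover counting error only. The SDs and the standard errors of the fits also carry variation between libraries. No 2 libraries were copies.

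The genes named with values were those called in a QKO comparison, the 4 highest and lowest there, the 10 highest per kb in each WT tissue, the 6 largest called differences in each direction between WT tissues, up to 4 genes per other list, and Slbp, Npat, Mki67, Pcna, H3f3b and H1f0; any other was chosen after its values were seen. The members and lists were chosen with earlier results of these data known. Heart and liver of an animal pair by the labels (correlation of deviations 0.0349 to 0.126). Samples labelled as separate animals are the replicates.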

Additional observations from a re-analysis of the deposited data

Results flagged for a closer look

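Of 128 sets of 4 libraries examined for the 31 named members and the summed level, 10 held a library that stood apart from the other 3 by Dixon's criterion, where chance flags about 1 in 20. QKO liver 3 gave 5 of them. In that library Hist1h4h was at 52.2 CPM (others 27.1 to 29.4), Hist1h4c at 20.1 CPM (11.7 to 13.01), Hist2h2aa1 at 4.33 CPM (1.71 to 1.89), Hist3h2a at 3.55 CPM (2.99 to 3.01) and Hist2h3b at 0.761 CPM (0.258 to 0.322). The summed level of 10 other RNAs without a poly(A) tail was 125858 CPM there, the highest of the livers; its part was not tested.

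In WT liver 4, which also held skeletal muscle and acinar markers, Hist1h2bc was at 53.4 CPM (others 33.2 to 34.3). In WT liver 3, Hist1h3e was at 4.68 CPM (5.59 to 5.73). In QKO heart 2, Hist1h4a was at 0.316 CPM (0.638 to 0.684) and Hist2h2ac at 2.56 CPM (3.84 to 4.09). In QKO heart 4, Hist1h4b was at 0.7997 CPM (0.173 to 0.266).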

How the results depend on the processing

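No member was called between QKO and WT, or in the interaction, under any of the alternatives run (other tools, scalings, filters, protein-coding genes alone, all libraries in 1 fit, the replicate block and left-out libraries). The median in QKO liver moved most without WT livers 3 and 4, to -0.029, and the count lower in WT heart with a filter of 1 CPM in 4 libraries, to 22, where fewer members were tested. Leaving out each library in turn gave 28 to 39 members lower and 4 higher in heart in WT, 16 to 21 lower and 5 to 7 higher in QKO, and medians of -0.43 to -0.17 for QKO against WT in liver and 0.05 to 0.29 in heart. Signs turned for Hist1h3g in QKO liver without WT livers 3 and 4 (0.057), Hist1h3g in QKO heart (-0.50 to 0.11 over the left-out libraries), Hist2h2aa2 there (-0.33 to 0.18, and 0.015 without the replicate 4 hearts), Ube2c between WT tissues (-4.83 to 0.34), and Mki67 between WT tissues (-0.29 to 0.17, -0.31 without both tissues of replicate 4, 0.090 with upper-quartile scaling, 0.0049 with the filter of 1 CPM and 0.30 without WT livers 3 and 4); for these the cause was not tested. Of 1172 values of named genes under alternatives, 1134 kept direction and side of the threshold, 21 lost their call, 5 gained it and 12 turned.

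With the animal as a replicate block, 34 members were lower in heart in WT and 21 in QKO, with 4 and 5 higher, and no call of a named gene changed. In the labels, WT and QKO animals share only a number. With that number as the replicate block, 0 members were called in liver and heart. Among all genes 12 were higher and 4 lower in liver with the block, against 10 and 5 without it. In heart 20 were higher and 30 lower with the block, against 12 and 16 without it. By their deviations, 2 of 8 livers and 7 of 8 hearts were closest to their own number. What the hearts of a number have in common was not tested. In the interaction the block was instead the animal, which pairs the heart and liver of 1 mouse. With it, 13 of 58 members had an unadjusted p under 0.05 by edgeR, against 5 without the block, and none was called. The share of all genes under that level is not given for the fit with the block. The rise from 5 to 13 can thus not be read as a result about the members. Genes with few counts and near-identical copies are the least certain.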

Other observations

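Members were also described by the length of their annotated tails. Among the 10 tested members whose annotated 3′ untranslated region has 1000 bases or more, 3 were higher and 4 lower in WT heart, with log2 differences between -1.73 for Hist1h2ac and 1.20 for Hist2h2be and a median of -0.27. Among the 45 others, 1 was higher, Hist1h1c, and 32 were lower, with a median of -1.13. In QKO 3 of 9 were higher and 3 lower among those with long tails, with a median of -0.46, and 2 of 45 were higher and 15 lower among the others, with a median of -0.53, so the medians lay close together there. The WT counts for long tails were near the shares of all genes tested. The length limit was chosen after the values were seen, no test was made, and several of these models overlap other genes.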
